A study of Mus musculus with 28 samples.

Results

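The LIF receptor and Stat3 pathway was followed through 6 genes: Lifr, Il6st, Jak1, Stat3, Socs3 and Pim1. They were chosen by name for their place in the pathway. All 6 were among the 17342 genes of the deposited expression table and passed the filter on low values.

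Expression was measured by RNA-seq in 7 libraries from V6.5 cells, male mouse embryonic stem cells (ESCs) with a mixed 129 and C57BL/6 background. The groups were Tet2-KO (2 clones), Tet2-Mut (2 clones) and Tet2-WT (3 independent ESC cultures). The labels do not say which mutation Tet2-Mut carries. No drug was given, and all cells shared serum and LIF, growth on feeder fibroblasts, removal of the feeders by pre-plating and a night on gelatin before RNA was taken. The study asked what Tet2, an enzyme that oxidizes methylated cytosine in DNA, does in gene expression apart from its catalysis, so Tet2-KO was set against Tet2-Mut as well as each against Tet2-WT. The unit throughout is the normalized count, a gene's read count divided by a factor for the depth of its library. It is not divided by gene length, so levels are compared between libraries and not between genes.

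LIF is the cytokine that keeps mouse ESCs self-renewing in serum. It joins its own receptor chain, Lifr, to the shared chain gp130, which is encoded by Il6st. The kinase Jak1, bound to these chains, then phosphorylates the transcription factor Stat3, which enters the nucleus and switches on its targets. Socs3 is such a target and a feedback inhibitor that binds gp130 and Jak kinases. Pim1, a serine/threonine kinase that favours survival, is another. RNA levels do not report the phosphorylation of Stat3.

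The recovered reads assigned to genes numbered 41.9 M to 58.5 M per library. Tet2 itself had 4624 and 5206 normalized counts in Tet2-KO, 9992 and 13181 in Tet2-Mut, and 10343, 10245 and 12074 in Tet2-WT. The 10 ESC markers summed to 279774 and 331264 in Tet2-KO, 324834 and 332460 in Tet2-Mut, and 330178, 324913 and 330075 in Tet2-WT. All groups thus carried the labelled cell type. Tdgf1 was called lower in Tet2-KO than in Tet2-WT, and Nanog lower in Tet2-Mut than in Tet2-WT. Of 26 fibroblast markers, 24 were measured and none was at 0 in all libraries of a group. Their summed level was 95035 and 75548 in Tet2-KO, 70930 and 55404 in Tet2-Mut, and 66782, 63577 and 61567 in Tet2-WT. The highest fibroblast sum and the lowest ESC sum were in the same library, Tet2-KO replicate 1. Most of each fibroblast sum was 1 gene, Fn1. It had 57216 and 49846 in Tet2-KO, 52509 and 38669 in Tet2-Mut, and 48307, 46050 and 43824 in Tet2-WT. Of these 24, 10 were called higher and 0 lower in Tet2-KO than in Tet2-WT (median log2 fold change 1.0), 0 higher and 1 lower in Tet2-Mut than in Tet2-WT (0.26), and 5 higher and 0 lower in Tet2-KO than in Tet2-Mut (0.79). Over all genes tested, 3% were called higher in Tet2-KO than in Tet2-WT and 2.64% than in Tet2-Mut. The 10 became 1, 2 and 0 without Tet2-WT replicate 1, 2 or 3. They became 0 with replicate number as a block or a limma prior that ignores the mean, 11 with edgeR and 13 with DESeq2. The 5 became 3 without any 1 Tet2-WT culture, 0 with that prior, 6 with edgeR and 11 with DESeq2. The median against Tet2-WT was 0.74 without Tet2-KO replicate 1 and 1.27 without replicate 2. In such bulk RNA, fewer cells of a type and less RNA per cell cannot be told apart. The part of these markers in the results that follow was not tested.

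Among the 6 genes, the feedback inhibitor Socs3 was lower in Tet2-KO than in both other groups, and it was the single member called in any of the 3 comparisons. Pim1, the other Stat3 target, averaged 24.4% above Tet2-WT in Tet2-KO without passing the test. Jak1 averaged 20.9% below Tet2-WT in Tet2-KO, also without passing. The receptor chains differed by less in that comparison, and Stat3 was close to level. A gene was called where limma, fitted over all 7 libraries, gave a Benjamini-Hochberg adjusted p under 0.05 over the 17338 genes tested.

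**Figure D1:**
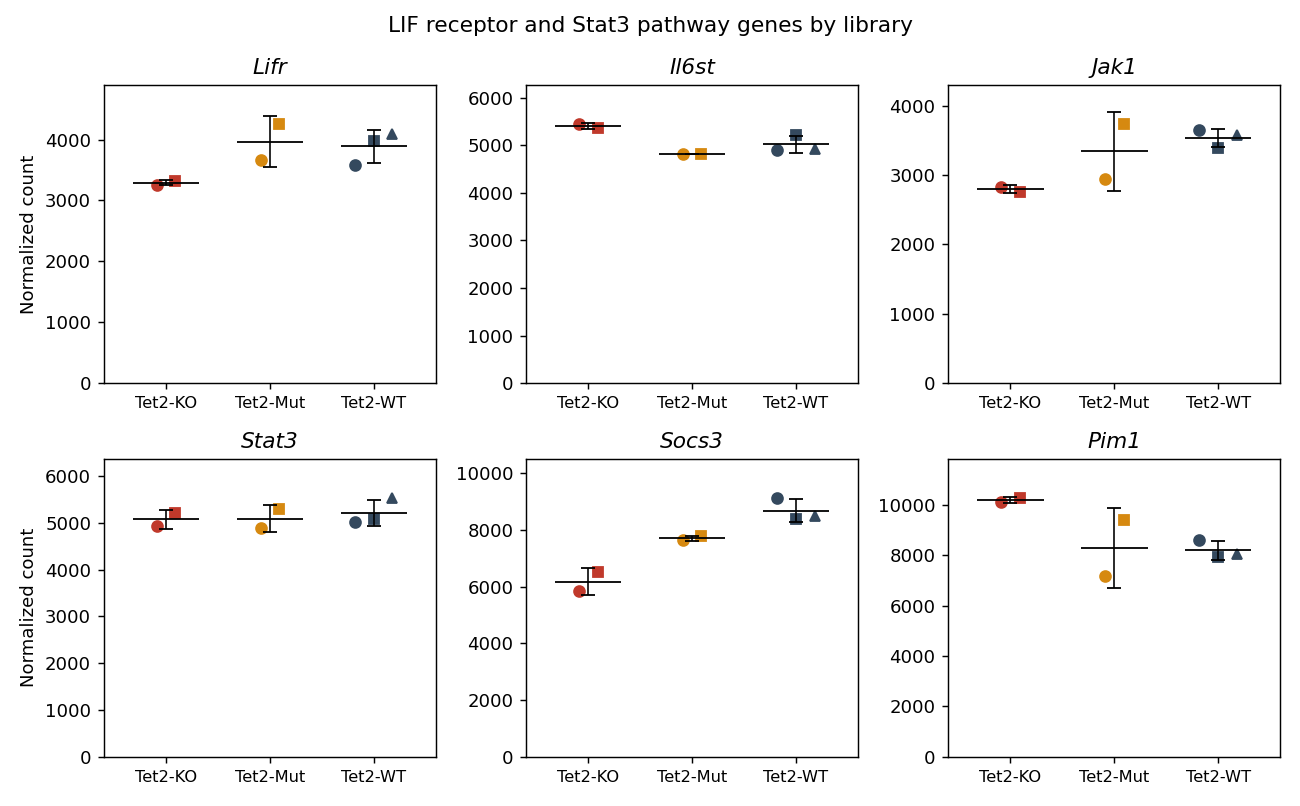
Normalized counts of Lifr, Il6st, Jak1, Stat3, Socs3 and Pim1, 1 panel per gene, each with its own vertical axis from 0. Each point is 1 library in Tet2-KO, Tet2-Mut or Tet2-WT, from left to right, and the bars mark group means with SD. Both Tet2-KO points for Socs3 (5850 and 6505) lie below all other libraries, and both for Pim1 (10086 and 10279) lie above all others.

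Lifr, the chain specific to LIF, lies on chromosome 15 (mm10, chr15:7090610-7197489). It had 3262 and 3318 normalized counts in Tet2-KO, 3671 and 4258 in Tet2-Mut, and 3580, 3982 and 4098 in Tet2-WT. Both Tet2-KO libraries were the lowest of the 7, and the Tet2-Mut and Tet2-WT libraries overlapped. The means were 3290 ± 39.7 in Tet2-KO (SD, n = 2), 3965 ± 415 in Tet2-Mut (SD, n = 2) and 3887 ± 272 in Tet2-WT (SD, n = 3). Tet2-KO differed from Tet2-WT by a log2 fold change of -0.24 (95% interval -0.44 to -0.03) with a limma adjusted p of 0.153. Tet2-KO against Tet2-Mut gave -0.27 (-0.49 to -0.04, limma adjusted p = 0.168), and it depended on the Tet2-Mut clone. It was -0.37 without Tet2-Mut replicate 1 and -0.16 without Tet2-Mut replicate 2, each with 1 Tet2-Mut clone left.

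Il6st encodes gp130, the chain that Lifr shares with the receptors of related cytokines (chr13:112464070-112506860). Its normalized counts were 5452 and 5367 in Tet2-KO, 4823 and 4818 in Tet2-Mut, and 4912, 5225 and 4927 in Tet2-WT. The groups did not overlap, with Tet2-KO highest and Tet2-Mut lowest, but the gaps were small. Tet2-KO stood above Tet2-WT by a log2 fold change of 0.11 (-0.04 to 0.25, limma adjusted p = 0.356) and above Tet2-Mut by 0.17 (0.01 to 0.32, limma adjusted p = 0.226). The 2 receptor chains thus leaned opposite ways in Tet2-KO, neither past the test.

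Jak1, the kinase held by the receptor chains (chr4:101151974-101265282), had 2835 and 2760 normalized counts in Tet2-KO, 2942 and 3739 in Tet2-Mut, and 3643, 3394 and 3578 in Tet2-WT. Both Tet2-KO libraries lay below all others, while 1 Tet2-Mut clone was near Tet2-KO and the other above every Tet2-WT culture. The means were 2798 ± 52.9 in Tet2-KO (SD, n = 2), 3341 ± 564 in Tet2-Mut (SD, n = 2) and 3539 ± 129 in Tet2-WT (SD, n = 3). The difference between Tet2-KO and Tet2-WT, a log2 fold change of -0.34 (-0.57 to -0.11), had a limma adjusted p of 0.0859. It passed the threshold in a limma fit to these 2 groups alone (adjusted p = 0.0131) and in DESeq2, settings that called 12.5% and 11.4% of all genes tested. A fit without 1 Tet2-Mut clone takes its spread from the same 2 groups, so it is nearly the same test and adds no separate call. Against Tet2-Mut the log2 fold change was -0.25 (-0.50 to 0.01, limma adjusted p = 0.260). With 1 Tet2-Mut clone left, it was -0.42 without Tet2-Mut replicate 1 and -0.073 without Tet2-Mut replicate 2.

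Stat3, the transcription factor at the end of the relay (chr11:100886806-100939594), had 4923 and 5219 normalized counts in Tet2-KO, 4889 and 5288 in Tet2-Mut, and 5009, 5086 and 5539 in Tet2-WT. The 3 groups overlapped. The log2 fold change was -0.04 in Tet2-KO against Tet2-WT (-0.21 to 0.13, limma adjusted p = 0.816), -0.03 in Tet2-Mut against Tet2-WT (-0.20 to 0.14, limma adjusted p = 0.842) and -0.00 in Tet2-KO against Tet2-Mut (-0.19 to 0.18, limma adjusted p = 0.984). These intervals leave room for differences of up to about 0.21 on the log2 scale.

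The upstream sequences of the 2 Stat3 targets are given because these genes stood on opposite sides of Tet2-WT in Tet2-KO. Both are the 250 bases before a RefSeq transcription start (GRCm38.p6, the mm10 build), written 5′ to 3′ on the gene's strand. Capitals mark TTCNNNGAA, the palindromic core that Stat factors bind, which reads the same on both strands. The Socs3 window is chr11:117969367-117969616 on the minus strand, and the Pim1 window, before the first of 2 listed starts, is chr17:29490535-29490784 on the plus strand.
Socs3: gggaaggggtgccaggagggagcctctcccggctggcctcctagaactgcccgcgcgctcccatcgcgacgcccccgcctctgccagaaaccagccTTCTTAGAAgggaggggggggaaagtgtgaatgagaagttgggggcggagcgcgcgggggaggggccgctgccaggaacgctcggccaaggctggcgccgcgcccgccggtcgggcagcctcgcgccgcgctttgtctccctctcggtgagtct
Pim1: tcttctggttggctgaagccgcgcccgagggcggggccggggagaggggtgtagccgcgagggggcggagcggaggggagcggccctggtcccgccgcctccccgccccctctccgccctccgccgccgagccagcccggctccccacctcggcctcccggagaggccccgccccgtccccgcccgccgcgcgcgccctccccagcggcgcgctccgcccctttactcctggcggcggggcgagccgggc
The Socs3 window held 1 match, TTCTTAGAA, whose first base lies 154 bases before the start. No match lay in the window of any other member, including both starts listed for Lifr and for Pim1. The listed Lifr starts (7129572 and 7140542) and the Socs3 start (117969366) lie inside the gene spans given here. So do the Jak1 start (101265223), the Stat3 start (100939540) and the second Pim1 start (29493085). The Jak1 and Stat3 windows reach past the outer ends of those genes. The bases before the outer ends of Lifr and Socs3 were not searched. The motif occurred in 2306 of the 32851 promoter windows of the same length (7.02%). The windows also differed in CG dinucleotides, the site of DNA methylation. They held 26 for Socs3, 26 for Il6st, 19 for Jak1, 36 at the first Pim1 start and 43 at the first listed Lifr start. These counts lay above the upper quartile over all windows, 16, and Stat3, with 13, lay below it. The second starts of Lifr and Pim1 had 3 and 4, below the median over all windows of 6 (lower quartile 2). A match describes letters in the window and does not show binding.

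Socs3, the feedback inhibitor (chr11:117966079-117970336), had 5850 and 6505 normalized counts in Tet2-KO, 7634 and 7764 in Tet2-Mut, and 9133, 8381 and 8501 in Tet2-WT. The 3 groups did not overlap, with Tet2-KO lowest, Tet2-Mut between and Tet2-WT highest. The means were 6178 ± 463 in Tet2-KO (SD, n = 2), 7699 ± 92.2 in Tet2-Mut (SD, n = 2) and 8672 ± 404 in Tet2-WT (SD, n = 3). Socs3 fell by 28.8% in Tet2-KO relative to Tet2-WT, a log2 fold change of -0.49 with an SE of 0.07 (-0.65 to -0.33, limma adjusted p = 0.0101). A change of this size or more was seen in 23.5% of all genes tested, so it was moderate among them. The call did not hold without Tet2-KO replicate 1, which leaves 1 Tet2-KO clone. It was also lost without Tet2-WT replicate 1, 2 or 3 (limma adjusted p 0.0627, 0.0547 and 0.0578). Nor did it hold with a limma prior that ignores the mean (0.0884) or with replicate number as a block (0.0855). The labels state no pairing by number. The fold change kept its sign in all 19 alternatives, between -0.57 and -0.41.

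**Figure D2:**
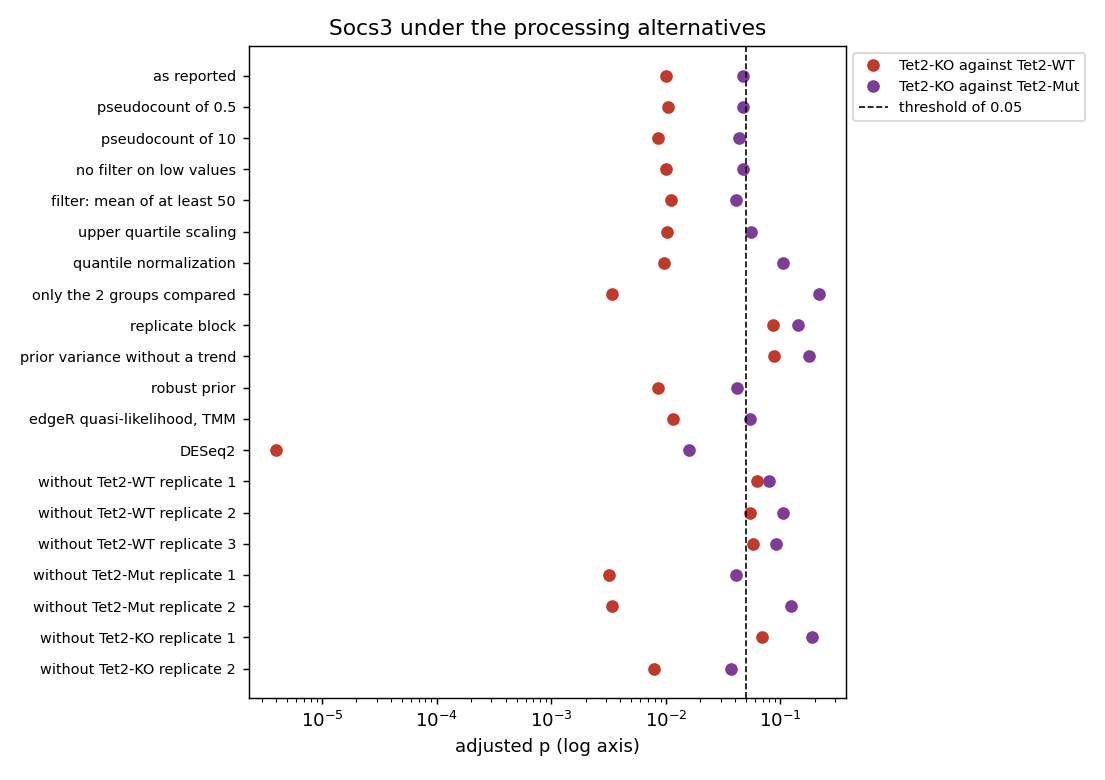
Adjusted p of Socs3, on a log axis, as reported and under 19 alternative settings, 1 line each, for Tet2-KO against Tet2-WT and for Tet2-KO against Tet2-Mut. The dashed line is the threshold of 0.05. Against Tet2-WT, 13 of the alternatives lie below the line, and against Tet2-Mut, 8 do.

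Against Tet2-Mut, Socs3 fell by 19.9% in Tet2-KO, a log2 fold change of -0.32 with an SE of 0.08 (-0.50 to -0.14, limma adjusted p = 0.0468). This p sits at the threshold, and 12 of 20 alternatives put it on the other side, edgeR among them (adjusted p = 0.0544). Without Tet2-KO replicate 1 the limma adjusted p was 0.188, without Tet2-Mut replicate 2 it reached 0.123, and leaving out Tet2-WT replicate 1, 2 or 3 gave 0.0795, 0.106 and 0.0915. In Tet2-Mut against Tet2-WT the difference was -0.17 (-0.33 to -0.01), with a limma adjusted p of 0.217 and no call. At the fewest reads of any library, 5668, the counting error of Socs3 was 1.33%, which covers read counting and not the spread between clones. Mates of a read pair may have been counted separately, and the error is then larger.

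Pim1, the survival kinase (chr17:29490785-29496111), had 10086 and 10279 normalized counts in Tet2-KO, 7167 and 9387 in Tet2-Mut, and 8616, 7910 and 8046 in Tet2-WT. Both Tet2-KO libraries were the highest of the 7, and the Tet2-Mut clones spanned the Tet2-WT range from below to above. The means were 10183 ± 136 in Tet2-KO (SD, n = 2), 8277 ± 1570 in Tet2-Mut (SD, n = 2) and 8190 ± 375 in Tet2-WT (SD, n = 3). Tet2-KO stood above Tet2-WT by a log2 fold change of 0.32 with an SE of 0.10 (0.08 to 0.55), and the limma adjusted p was 0.113. It passed where only these 2 groups were fitted (limma adjusted p = 0.0120), a setting that called 12.5% of all genes tested. A fit without 1 Tet2-Mut clone takes its spread from the same 2 groups and is nearly the same test. Against Tet2-Mut the log2 fold change of Pim1 was 0.31 (0.05 to 0.57, limma adjusted p = 0.163). With 1 Tet2-Mut clone left, it was 0.51 without Tet2-Mut replicate 2 and 0.12 without Tet2-Mut replicate 1.

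Across the 6 members, 1 was called in Tet2-KO against Tet2-WT, where 5.91% of all genes tested were called (3% higher and 2.91% lower). In Tet2-KO against Tet2-Mut 1 was called, beside 6.19% of all genes (2.64% higher and 3.55% lower). In Tet2-Mut against Tet2-WT 0 were called, beside 3.43% of all genes (1.44% higher and 1.98% lower). There 1 member, Socs3, had an unadjusted limma p under 0.05, and edgeR and DESeq2 also called 0. The libraries of the groups did not overlap for 5 of 6 members in Tet2-KO against Tet2-WT, for 5 of 6 in Tet2-KO against Tet2-Mut and for 2 of 6 in Tet2-Mut against Tet2-WT. Over all genes these shares were 44.7%, 44.8% and 40.7%. The 2 comparisons with Tet2-WT share its libraries, and the 2 with Tet2-KO share its clones.

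**Figure D3:**
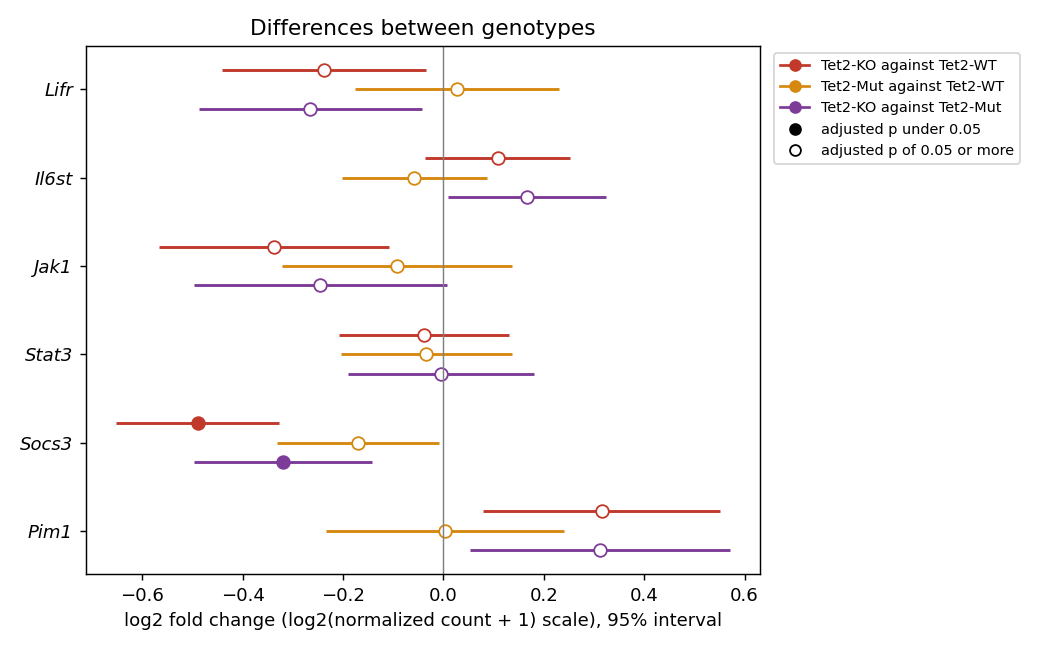
Log2 fold changes of the 6 members in Tet2-KO against Tet2-WT, Tet2-KO against Tet2-Mut and Tet2-Mut against Tet2-WT, with 95% intervals from limma. Filled points were called, which holds for Socs3 at -0.49 against Tet2-WT and at -0.32 against Tet2-Mut.

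The spread within groups differed between members. In Tet2-Mut the coefficient of variation was 19.0% for Pim1, 16.9% for Jak1 and 10.5% for Lifr, against 1.20% for Socs3 and 0.0827% for Il6st. In Tet2-KO it was highest for Socs3 (7.50%) and at most 4.12% for the others, and in Tet2-WT it lay between 3.51% and 6.99%. With 2 clones each, these values are loose estimates.

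Ratios between members within a library do not depend on the depth factor. Pim1 over Socs3 was 1.72 and 1.58 in Tet2-KO, 0.939 and 1.21 in Tet2-Mut, and 0.943, 0.944 and 0.946 in Tet2-WT. Tet2-KO stood above all other libraries, and the Tet2-WT cultures were nearly identical (0.944 ± 0.00168, SD, n = 3, against 1.65 ± 0.102 in Tet2-KO, SD, n = 2). The counting error at the lowest reads was 1.33% for Socs3 and 1.21% for Pim1, larger than this Tet2-WT spread. So close an agreement therefore does not show how far the ratio varies between cultures. Lifr over Il6st was 0.598 and 0.618 in Tet2-KO, 0.761 and 0.884 in Tet2-Mut, and 0.729, 0.762 and 0.832 in Tet2-WT. Jak1 over Stat3 was 0.576 and 0.529 in Tet2-KO, 0.602 and 0.707 in Tet2-Mut, and 0.727, 0.667 and 0.646 in Tet2-WT. In both of these ratios Tet2-KO lay below all other libraries. The ratios are given as values without a test, since the pairs were formed after the members' levels were known.

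**Figure D4:**
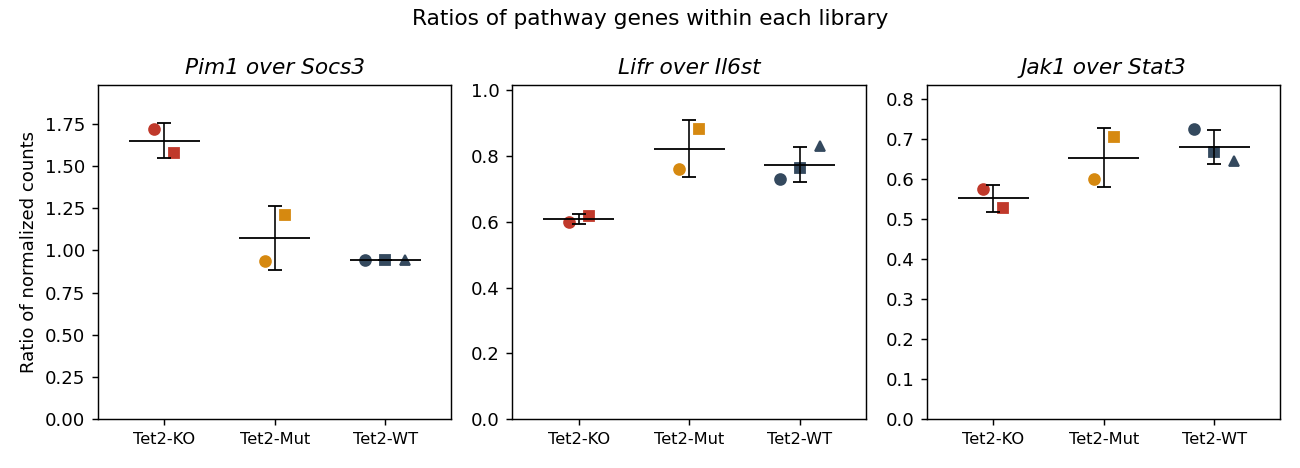
Ratios of normalized counts within each library for Pim1 over Socs3, Lifr over Il6st and Jak1 over Stat3, with Tet2-KO, Tet2-Mut and Tet2-WT from left to right. Points are libraries and bars are means with SD. The Tet2-KO points are the highest for Pim1 over Socs3 (1.72 and 1.58) and the lowest in the other panels.

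The chromosomes that hold the members did not shift as a whole. Median log2 fold changes over the genes of chromosomes 4, 11, 13, 15 and 17 lay between -0.03 and 0.04 in the 3 comparisons. The 43 tested neighbours within 1.5 Mb of Socs3 had medians of -0.09 in Tet2-KO against Tet2-WT, 0.01 in Tet2-KO against Tet2-Mut and -0.06 in Tet2-Mut against Tet2-WT. The 37 neighbours of Pim1 had a median of -0.04 in Tet2-KO against Tet2-WT. Of the 12 neighbours of Jak1, 4 were called in Tet2-KO against Tet2-WT, beside 5.91% of all genes tested. The medians of the 12 were 0.06 in that comparison, 0.11 in Tet2-KO against Tet2-Mut and -0.15 in Tet2-Mut against Tet2-WT. Chromosome 8, which holds none of the members, differed: its 719 genes had medians of -0.26, -0.54 and 0.28 in Tet2-KO against Tet2-WT, Tet2-KO against Tet2-Mut and Tet2-Mut against Tet2-WT. On chromosome 14, which holds none of them either, 1 library stood apart: its 455 genes had a median of 0.51 above the Tet2-WT mean in Tet2-Mut replicate 2, against -0.057 in Tet2-Mut replicate 1, and group medians of -0.03, -0.25 and 0.23 in the same order of comparisons. The medians of the other autosomes and of chromosome X lay between -0.04 and 0.06.

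Of 12 other ligands and receptors of the gp130 family that were tested, limma called 1, in Tet2-KO against Tet2-Mut only. In that comparison 6.19% of all genes tested were called. Il6ra, the ligand-binding chain for interleukin 6, had 140 and 158 normalized counts in Tet2-KO, 55.6 and 59.8 in Tet2-Mut, and 131, 98.8 and 105 in Tet2-WT. It was higher in Tet2-KO than in Tet2-Mut (1.35, limma adjusted p = 0.0188), a call that was lost without either Tet2-KO clone (highest adjusted p = 0.0728). In Tet2-KO against Tet2-WT limma called 0 of the 12, with 0 at an unadjusted p under 0.05. In Tet2-Mut against Tet2-WT it called 0, with 3 at an unadjusted p under 0.05, and edgeR called 0 in both comparisons. A limma fit of only Tet2-KO and Tet2-WT, which called 12.5% of all genes tested, called 1 of the 12, the receptor chain Cntfr, higher. Cntfr had 863 and 874 normalized counts in Tet2-KO, 459 and 1959 in Tet2-Mut, and 401, 460 and 568 in Tet2-WT. The ligands Clcf1 (1.25 in Tet2-Mut against Tet2-WT, limma adjusted p = 0.0959) and Osm (-1.11, limma adjusted p = 0.0990) did not pass by limma. In that comparison DESeq2, which called 8.95% of all genes tested, called 3 of the 12, Clcf1 higher and Osm and Il6ra lower. Clcf1 had 103 and 113 normalized counts in Tet2-Mut and 35.0, 37.7 and 68.5 in Tet2-WT. Osm had 39.1 and 30.9 in Tet2-Mut and 68.2, 94.1 and 68.5 in Tet2-WT. The median log2 fold change of the list was 0.15 in Tet2-KO against Tet2-WT, 0.09 in Tet2-KO against Tet2-Mut and -0.08 in Tet2-Mut against Tet2-WT, beside -0.00, 0.00 and 0.01 over all genes.

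Among 8 other Janus kinases and Stat factors, limma called 0 higher and 3 lower in Tet2-KO against Tet2-WT. Over all genes tested these shares were 3% and 2.91%. By sign alone, 1 of the 8 was positive and 7 were negative. Stat6, the interleukin 4 responsive factor, had 1147 and 1580 normalized counts in Tet2-KO, 1645 and 1908 in Tet2-Mut, and 1963, 2098 and 2143 in Tet2-WT. Both Tet2-KO clones lay below all other libraries, and the log2 fold change against Tet2-WT was -0.62 (limma adjusted p = 0.0336). The kinases Tyk2 (-0.54, limma adjusted p = 0.0342) and Jak3 (-0.59, limma adjusted p = 0.0493) also fell, and Jak3 lies on chromosome 8. Jak3 sat at the threshold and was called in 5 of 12 alternatives beside those that leave out a library. In Tet2-KO against Tet2-WT edgeR called Tyk2 and Stat6, and DESeq2, which called 11.4% of all genes tested there, called all 3. In Tet2-Mut against Tet2-WT limma called 0 of the 8, with 4 at an unadjusted p under 0.05 and 0 called by edgeR. DESeq2, which called 8.95% of all genes tested in that comparison, called Stat2 lower. In Tet2-KO against Tet2-Mut limma, edgeR and DESeq2 each called 0, with 2 at an unadjusted limma p under 0.05. The list's medians were -0.36, 0.13 and -0.40 in Tet2-KO against Tet2-WT, Tet2-KO against Tet2-Mut and Tet2-Mut against Tet2-WT.

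Among the inhibitors, limma called Socs3 and 0 of the other 14 in any of the 3 comparisons. In Tet2-KO against Tet2-WT 3 had an unadjusted p under 0.05, in Tet2-KO against Tet2-Mut 2 and in Tet2-Mut against Tet2-WT 1, and edgeR called 0 in each. DESeq2, which called 11.4%, 10.5% and 8.95% of all genes in these comparisons, called 1 of the 14 in each, Ptpn6 lower in both comparisons with Tet2-WT and Socs2 lower in Tet2-KO than in Tet2-Mut. The phosphatase Ptpn6 was nearest by limma, at -0.75 in Tet2-KO against Tet2-WT (limma adjusted p = 0.0879) and -0.76 in Tet2-Mut against Tet2-WT (limma adjusted p = 0.104). Socs2, a relative of Socs3, was at -0.19 in Tet2-KO against Tet2-WT (limma adjusted p = 0.431) and -0.44 in Tet2-KO against Tet2-Mut (0.120). The Stat inhibitors Pias2 (-0.13, 0.645) and Pias3 (-0.28, 0.176) did not pass in Tet2-KO against Tet2-WT either. The list's medians were -0.02, 0.05 and -0.06 in Tet2-KO against Tet2-WT, Tet2-KO against Tet2-Mut and Tet2-Mut against Tet2-WT.

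Of 18 other genes known as LIF and Stat3 responsive, limma called Bcl3 lower and Cebpb higher in Tet2-KO against both other groups. It called 5.91% of all genes tested in Tet2-KO against Tet2-WT and 6.19% in Tet2-KO against Tet2-Mut. Bcl3, a nuclear IkB protein, had 3648 and 4028 normalized counts in Tet2-KO, 5145 and 5083 in Tet2-Mut, and 5146, 4959 and 5199 in Tet2-WT. Its log2 fold change was -0.41 against Tet2-WT (limma adjusted p = 0.0158) and -0.42 against Tet2-Mut (limma adjusted p = 0.0153). Cebpb, a leucine zipper transcription factor, had 1014 and 838 in Tet2-KO, 581 and 668 in Tet2-Mut, and 575, 557 and 590 in Tet2-WT. Its log2 fold change was 0.68 against Tet2-WT (limma adjusted p = 0.0207) and 0.57 against Tet2-Mut (limma adjusted p = 0.0468). The pluripotency factor Klf4 was at -0.41 in Tet2-KO against Tet2-WT (limma adjusted p = 0.0611), where DESeq2 called it lower and Zfp36 higher, and Junb, on chromosome 8, was at 0.53 in Tet2-Mut against Tet2-WT (limma adjusted p = 0.0730). The list's medians were -0.04, -0.10 and 0.11 in Tet2-KO against Tet2-WT, Tet2-KO against Tet2-Mut and Tet2-Mut against Tet2-WT.

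The Tet2-Mut clones differed from each other in this list. In Tet2-Mut against Tet2-WT limma called 0 of the 18, with 9 at an unadjusted p under 0.05 and 0 called by edgeR. DESeq2 called 3 higher (Klf5, Junb and Egr1) and 2 lower (Tfcp2l1 and Fos), beside 8.95% of all genes tested. Without Tet2-Mut replicate 1, which leaves 1 clone assumed to vary like the other groups, 8 were called higher and 1 lower, beside 12.7% of all genes tested. Tet2-KO against this clone gave 2 higher and 9 lower, beside 15.5% of all genes. Among genes picked here after their values were seen, Myc had 2659 and 6873 normalized counts in the Tet2-Mut clones and 1518, 2234 and 2336 in Tet2-WT. Gbx2, a homeobox factor of the LIF response, had 1260 and 3673 in the Tet2-Mut clones and 942, 1207 and 1498 in Tet2-WT. For both genes the first clone lay near Tet2-WT and the second well above it. The second clone is the one whose chromosome 14 stood apart, and the part of that in these genes was not tested.

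In the ERK and PI3K branches that also leave the LIF receptor, limma called 2 of 16 genes, Gab1 and Pik3r1. Gab1 was called in Tet2-Mut against Tet2-WT and both in Tet2-KO against Tet2-Mut, beside 3.43% and 6.19% of all genes tested. In Tet2-KO against Tet2-WT limma called 0, with 4 at an unadjusted p under 0.05 and 0 called by edgeR. There DESeq2 and quantile normalization called Gab1 lower, and a limma fit of only the 2 groups called Gab1 and Pdpk1 lower. Of all genes tested, DESeq2 called 11.4% in that comparison and the fit of only the 2 groups called 12.5%. Gab1, an adaptor bound by the phosphatase Shp2, had 16707 and 15896 normalized counts in Tet2-KO, 25802 and 29394 in Tet2-Mut, and 18383, 19748 and 22176 in Tet2-WT. It rose in Tet2-Mut against Tet2-WT (log2 fold change 0.46, limma adjusted p = 0.0350) and was lower in Tet2-KO than in Tet2-Mut (-0.76, limma adjusted p = 0.00455). Gab1 lies on chromosome 8, whose median moved the same way in both comparisons. Whether that shift plays a part in Gab1, Jak3 or Junb was not tested. Pik3r1, a regulatory subunit of PI3K, was higher in Tet2-KO than in Tet2-Mut (0.74, limma adjusted p = 0.0331), with 1144 and 857 normalized counts in Tet2-KO, 646 and 547 in Tet2-Mut, and 877, 848 and 749 in Tet2-WT. Pdpk1, a kinase of the PI3K branch, was at -0.30 in Tet2-KO against Tet2-WT (limma adjusted p = 0.0962). The list's medians were -0.00, 0.05 and -0.06 in Tet2-KO against Tet2-WT, Tet2-KO against Tet2-Mut and Tet2-Mut against Tet2-WT.

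The 5 list genes called in Tet2-KO against Tet2-WT (Stat6, Tyk2, Jak3, Bcl3 and Cebpb) all lost the call without any 1 of the 3 Tet2-WT cultures and without Tet2-KO replicate 1. Their highest adjusted p lay between 0.104 for Bcl3 and 0.212 for Tyk2. In Tet2-KO against Tet2-Mut Gab1 kept its call without each library in turn (limma adjusted p 0.00100 to 0.0200), and Bcl3 lost it only without Tet2-KO replicate 1 (0.0711). Cebpb lost that call without 5 of the 7 libraries, at up to 0.204, and Pik3r1 at up to 0.153. In Tet2-Mut against Tet2-WT Gab1 lost its call, at up to 0.169, without Tet2-Mut replicate 2 or Tet2-WT replicate 1 or 2.

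**Figure D5:**
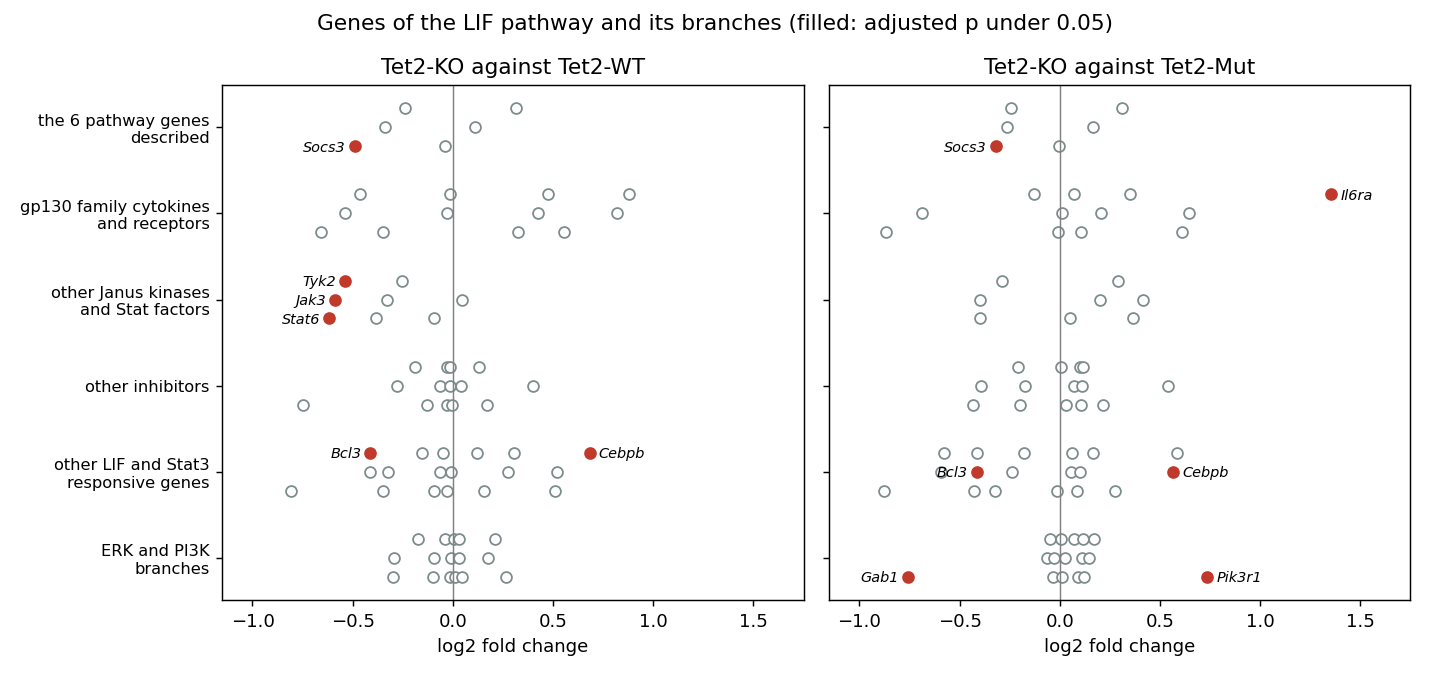
Log2 fold changes of the 6 members and of 5 lists of related genes, with Tet2-KO against Tet2-WT on the left and Tet2-KO against Tet2-Mut on the right. Each point is 1 gene, filled and named where the limma adjusted p was under 0.05. The filled points of the members are Socs3 at -0.49 and -0.32, and 0 of the other 14 inhibitors are filled.

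The genes whose levels were most like those of a member were found over the 7 libraries among 11421 genes with a mean of at least 100. Libraries of a group share their genotype, so these likenesses hold the group differences too, and they are given as a description. Pearson's r with Socs3 was 0.996 for Mgat5b, a glycosyltransferase, 0.992 for Ctc1, a telomere protein, and 0.992 for Washc3. For Pim1 the nearest were Gnas (0.984), Tprkb (0.962) and Axin1 (0.962). Jak1 was nearest to Lrp6, a Wnt coreceptor (0.989), Foxo3 (0.987) and G6pc3 (0.986), and Lifr to Cibar1 (0.989), Myo1g (0.984) and Ints3 (0.978). Il6st was nearest to Cbarp (0.971), Eif1a (0.966) and Ptov1 (0.966), and Stat3 to Atp6v0a2 (0.962), Cmpk1 (0.951) and Fam72a (0.949). No member of the pathway was among the 3 nearest genes of another.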

How the data were processed

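The authors deposited a table of normalized counts for 17342 genes in 7 libraries, a linear signal of gene counts divided by size factors. Per the submitters' processing notes, the tools named are DESeq2, featureCounts, STAR 2.7.3a and Trim Galore 0.6.5, and the build is mm10. For the annotation and strand setting, the sources used here give nothing. In each library 100% of values were whole multiples of 1 step, to 0.01 reads, so whole reads were recovered. Between 72.1% and 75.2% of values from 1 to 20 reads were even, so mates may have been counted separately. A floor of 3 reads equals 2.5 to 3.54 normalized counts. The lowest gene total over the 7 libraries was 71 reads, which points to a filter before deposit. The 3 bisulfite and 18 CUT&Tag samples were not analysed here.

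Differences were tested two-sided by limma 3.58.1 (R 4.3.3). The values were log2(normalized count + 1) of the 17338 genes that reached 10 in at least 2 libraries. One group-means model took in the 7 libraries, with a mean-dependent prior and a threshold of 0.05 after Benjamini-Hochberg adjustment over all genes. Because of the added 1, fold changes of low genes are understated. The residual degrees of freedom were 4 and the prior added 5.03. The spread is pooled over clones and Tet2-WT cultures, although Tet2-WT libraries were closer together (chi-square per degree of freedom 7.14, 7.61 and 13.2) than Tet2-KO (33.4) or Tet2-Mut (44.1), so p-values may be too small where clones are compared. No pair agreed within sampling noise. The labels do not say whether the clones were cultured apart.

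The labels do not say that replicate numbers pair the libraries, and the reported fit does not use them. Alternatives used edgeR 4.0.16 and DESeq2 1.42.0 on the recovered reads, other pseudocounts, filters and scalings, fewer groups, other priors, a replicate block and each library left out. The fit was tested on simulated counts. Positions and upstream sequences are RefSeq's for GRCm38.p6, matched by symbol for 16093 genes (92.8%). From each list the text names the genes called in at least 1 comparison, and those with the smallest p up to 4, and per member the 3 most correlated genes, and leaves some of these out. Some genes of the lists are not reported here and enter none of the lists' counts or medians. The members and lists were chosen with earlier results of these data known.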

Additional observations from a re-analysis of the deposited data

How the results depend on the processing

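Over the 3 comparisons and 6 members, 300 alternative fold changes kept their direction and side of the threshold, 18 lost the call, 10 gained one and 20 turned sign, each of these last without a call. In Tet2-KO against Tet2-WT the reported count of 1 member called became 3 in a fit of only the 2 groups, 2 with DESeq2, 0 with a replicate block (Socs3 adjusted p = 0.0855) and 0 with a prior variance without a trend; it ran from 0 to 3 with 1 library left out. In Tet2-KO against Tet2-Mut the count of 1 became 0 with edgeR, quantile normalization, upper quartile scaling, only the 2 groups, a replicate block and no trend, and ran from 0 to 3 with 1 library left out. In Tet2-Mut against Tet2-WT it was 0 in each. The cause was not tested. Turned signs were, in Tet2-KO against Tet2-WT, Stat3 at 0.0063 with a replicate block (-0.080 to 0.0063 with 1 library left out); in Tet2-KO against Tet2-Mut, Stat3 at 0.0021 with upper quartile scaling and 0.038 with quantile normalization (-0.061 to 0.052); and in Tet2-Mut against Tet2-WT, Lifr at -0.018 with quantile normalization (-0.080 to 0.13), Stat3 at 0.011 with a replicate block (-0.091 to 0.023), Pim1 at -0.010 with upper quartile scaling, -0.062 with quantile normalization and -0.0092 with a replicate block (-0.19 to 0.20), and Jak1 at -0.27 to 0.080. Over all genes, the calls (1025 in Tet2-KO against Tet2-WT, 1074 in Tet2-KO against Tet2-Mut, 594 in Tet2-Mut against Tet2-WT) became 2153, 0 and 901 with only the 2 groups, 15, 467 and 7 with a replicate block, 19, 10 and 0 without a trend and 1971, 1815 and 1551 with DESeq2. With 1 library left out they ran from 85 to 2158, 530 to 2679 and 6 to 2198. The labels state no pairing by replicate number. Same-numbered libraries deviated from their group means with correlations of -0.18 to 0.21. With 2 libraries in Tet2-KO and in Tet2-Mut, these values mirror those of differently numbered libraries. They therefore cannot decide whether the numbers pair the libraries. The block sets Tet2-WT replicate 3 apart, so that library adds nothing to a comparison. A crossed block for Tet2-KO against Tet2-Mut, chosen after seeing the data, called 0 members and 804 genes. Each member had at least 2670 reads in each library.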
